A study of Mus musculus with 14 samples.

Results

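The comparison described here asked whether loss of G9a changed the expression of each gene by the same amount in bulge cells and in cells of the interfollicular epidermis (IFE) of mouse skin. For every gene the effect in bulge cells (bulge cKO minus bulge WT) and the effect in IFE cells (IFE cKO minus IFE WT) were estimated, and the bulge effect minus the IFE effect, the interaction of genotype and compartment, was tested. All 14 arrays of the series entered the comparison. The interaction passed the threshold in 18 of 17097 genes, with a positive difference in 4 and a negative one in 14.

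The arrays held RNA of mouse epidermal cells from skin in homeostasis, taken at 15 weeks of age. Bulge cells gave 4 arrays from mice with a conditional knockout of G9a (cKO) and 3 from wild type (WT) mice, and IFE cells likewise gave 4 cKO and 3 WT arrays. The sources used here do not name the promoter that drove the knockout, the exons removed or the way the compartments were separated. No label ties a replicate to an animal of its own, so p-values here measure the spread between samples, part of which may be technical.

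G9a, encoded by Ehmt2, is a histone methyltransferase that acts with its partner GLP, encoded by Ehmt1, to place methyl marks on H3K9, a modification linked to gene silencing. The bulge is the part of the hair follicle where its stem cells reside, most of them at rest between hair cycles. The IFE is the layered epidermis between follicles, in which basal cells divide and their progeny differentiate towards the skin surface.

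Values are log2 signals, so a difference of 1 is a doubling of the signal. The array medians lay between 5.76 and 5.84, and control probe sets with no target and 10 to 15 G or C bases read 3.38 to 4.12. Controls with more G or C bases read higher, at 4.96 to 5.35 with 20 and 7.1 to 7.74 with 25. The first principal component, with 72.5% of the variance, set bulge WT arrays (-48.2 to -42.4) apart from IFE arrays (23 to 40.1). Of the bulge cKO arrays, the first and the fourth scored -36.7 and -37.2, and the second and the third, which were closer to IFE, scored -6.9 and -11.3. Of the IFE cKO arrays, the first and the fourth scored 40.1 and 37.4, and the second and the third, which were closer to bulge, scored 23.3 and 23. The signal of Ehmt2 itself fell in both compartments on 1 of its probe sets. That probe set read 5.85 to 6.02 on bulge cKO, 9.51 to 9.69 on bulge WT, 5.95 to 6.09 on IFE cKO and 9.59 to 9.78 on IFE WT arrays, with effects of -3.68 and -3.66 and an interaction of -0.02 (SE 0.09, limma adjusted p = 0.943 over all probe sets). Its other probe set, which stood for Ehmt2 in the gene tests because its mean was higher, had an interaction of -0.08 (95% interval -0.28 to 0.12), and Ehmt1 one of -0.10 (-0.43 to 0.22).

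The interaction was called where limma's p-value, adjusted over all genes by Benjamini and Hochberg, was under 0.05. The 18 genes were 0.105% of those tested, the 4 with a positive difference 0.0234% and the 14 with a negative one 0.0819%. An unadjusted p under 0.05 was found for 2404 genes (14.1%), and 49 passed at an adjusted p under 0.1. The count depended on single arrays. It was 3 without bulge cKO replicate 2, bulge cKO replicate 3 or IFE cKO replicate 3, 240 without bulge cKO replicate 4, and 4 without IFE WT replicate 1 or 2. It was 10, 11 and 8 without bulge WT replicates 1, 2 and 3, 7 without IFE cKO replicate 1, and 11 without IFE WT replicate 3. Phka1, Tenm3 and Tmem176b passed in all 14 of these fits, and the other 15 genes did not pass without bulge cKO replicate 2 or 3. Without both of these replicates 3 genes passed, Phka1, Tmem176b and Rimklb, while the estimates of the 18 genes were 0.824 (Hoxa5) to 1.1 (Lpcat4) times those from all arrays.

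Of the 18 genes, 15 passed the threshold for the knockout effect in bulge cells and not in IFE cells. Within bulge cells 656 genes passed the threshold (3.84% of those tested, 1.98% higher and 1.85% lower in cKO) and within IFE cells 85 (0.497%). Of the 613 genes that passed in bulge alone, 15 also passed for the interaction, and so did 2 of the 42 that passed in IFE alone, Tslp and Tmem176b, and 1 of the 43 that passed in both, Slc38a4. For the remaining genes past the threshold in 1 compartment a difference between compartments was not shown, and the IFE estimate had the same sign as the bulge effect in 454 of the 613. The share with the same sign over all genes was not counted, so this number is a description. By limma 0 genes passed in both compartments in opposite directions, and 121 had an unadjusted p under 0.05 in both with opposite signs. With single arrays left out, the bulge count ranged from 116 to 2553 and the IFE count from 38 to 107. The median 95% interval of the interaction reached 0.246 to either side of the estimate.

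**Figure D1:**
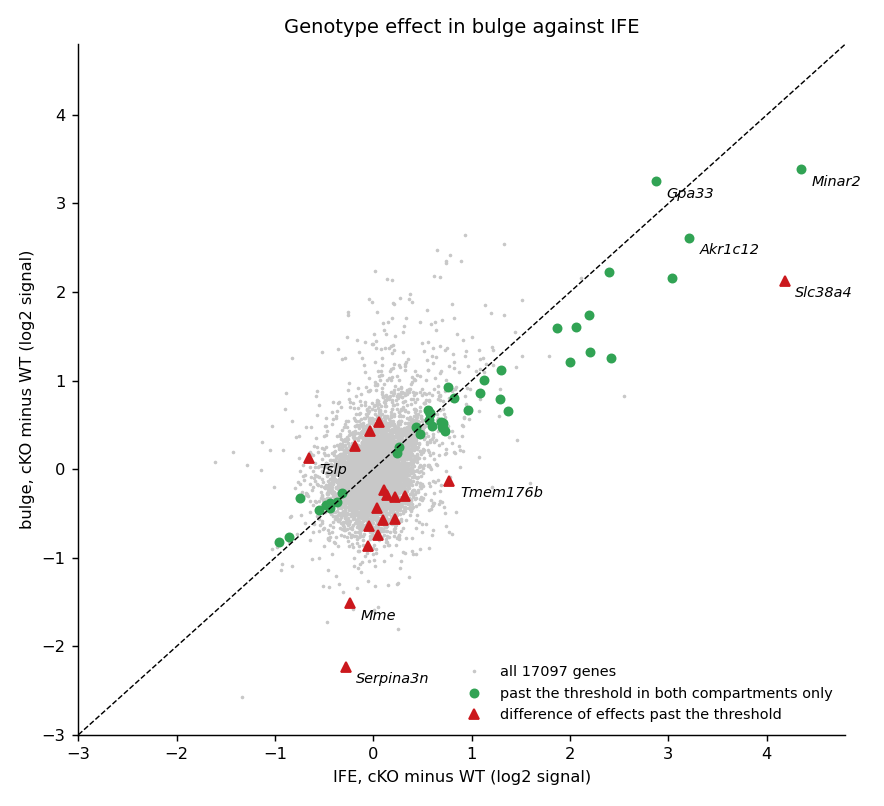
Genotype effect in bulge cells (vertical axis) against the genotype effect in IFE cells (horizontal axis), both cKO minus WT in log2 signal, for 17097 genes (grey); green circles are genes past the threshold in both compartments, red triangles the 18 genes with an interaction past it, and the dashed line marks equal effects. Slc38a4 lies far below the line at 4.18 in IFE and 2.12 in bulge, and Serpina3n and Mme lie near 0 in IFE and at -2.23 and -1.52 in bulge.

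**Figure D2:**
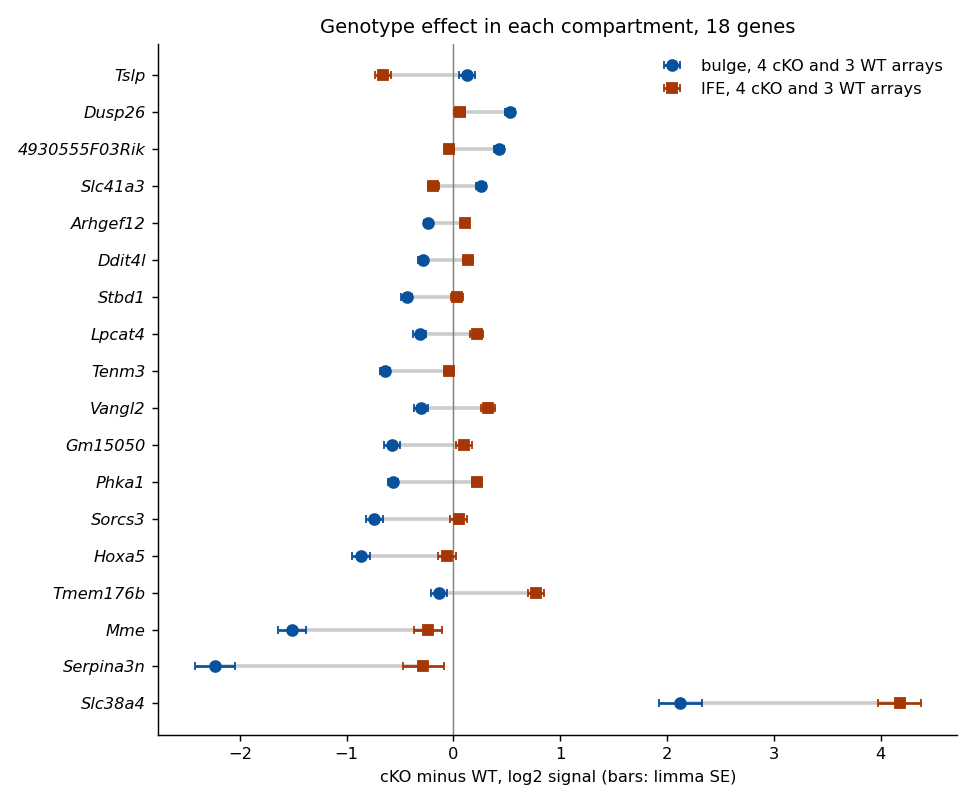
Genotype effect (cKO minus WT, log2 signal) of the 18 genes in bulge (blue circles) and IFE cells (red squares), with bars for the standard error from limma and genes ordered by the interaction. Slc38a4 is the gene with large effects in both compartments, and Tslp and Tmem176b are those whose larger effect is in IFE cells with a bulge effect near 0.

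Slc38a4, which encodes an amino acid transporter and is an imprinted gene, rose in both compartments and by more in IFE cells. Its log2 signal on bulge cKO replicates 1 to 4 was 9.70, 9.94, 9.76 and 9.91, and on bulge WT replicates 1 to 3 it was 8.26, 7.37 and 7.48. On IFE cKO replicates 1 to 4 it was 9.38, 9.69, 9.55 and 9.50, and on IFE WT replicates 1 to 3 it was 5.55, 4.93 and 5.56. The cKO arrays of both compartments thus lay within a narrow band, while the WT arrays of the compartments lay far apart, those of IFE below the array medians. The effect was 2.12 in bulge (SE 0.20, adjusted p = 2.34e-04) and 4.18 in IFE (SE 0.20, adjusted p = 3.00e-07), and the interaction was -2.06 (SE 0.28, 95% interval -2.67 to -1.44, adjusted p = 0.0228). Bulge minus IFE was 2.36 in WT and 0.30 in cKO (adjusted p = 0.242). A second Slc38a4 probe set gave effects of 1.84 and 2.43 and an interaction of -0.58 (SE 0.29, limma adjusted p = 0.406 over all probe sets), so the size of the difference varied between the probe sets. In arrays of whole cell samples, less RNA in each cell and fewer cells that express the gene cannot be told apart.

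**Figure D3:**
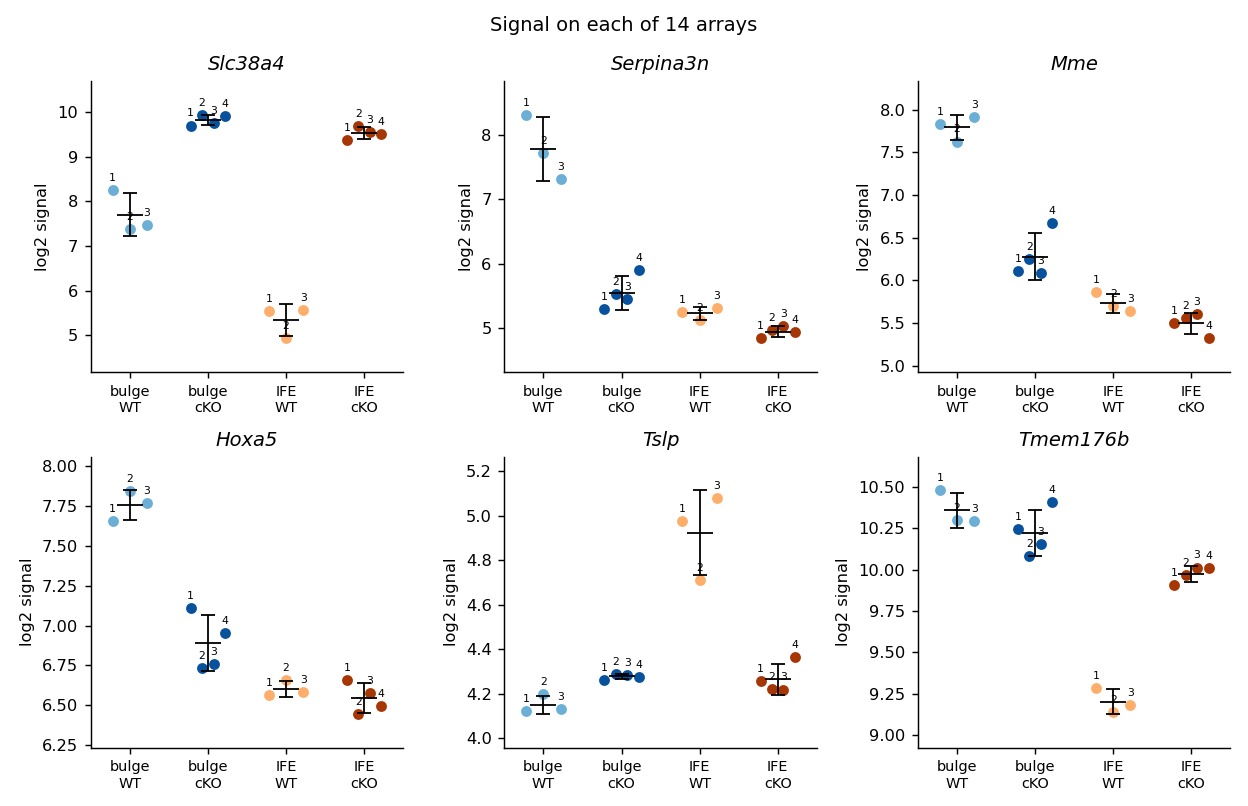
Log2 signal of Slc38a4, Serpina3n, Mme, Hoxa5, Tslp and Tmem176b on each of the 14 arrays, by group, with replicate numbers beside the points and the mean and SD of each group as bars. In Slc38a4 both cKO groups lie above both WT groups, in Serpina3n, Mme and Hoxa5 the bulge WT arrays stand above all others, in Tslp the IFE WT arrays stand above all others, and in Tmem176b they stand below all others.

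Serpina3n and Mme, which act on extracellular proteolysis, fell in bulge cells and showed smaller differences in IFE cells that did not pass the threshold. Serpina3n encodes a secreted inhibitor of serine proteases. The 4 bulge cKO arrays, in order of replicate, read 5.29, 5.53, 5.46 and 5.90 and the 3 bulge WT arrays 8.31, 7.71 and 7.31. On IFE cKO replicates 1 to 4 it was 4.84, 4.97, 5.04 and 4.94, and on IFE WT replicates 1 to 3 it was 5.26, 5.12 and 5.32. Bulge WT arrays were far above all others, and all others but bulge cKO replicate 4 lay below the array medians. On IFE arrays Serpina3n was near control probe sets with no target (4.71 to 5.06 at 19 and 4.96 to 5.35 at 20 G or C bases). At that level a larger fall in IFE could hardly show. The effect was -2.23 in bulge (SE 0.19, adjusted p = 1.22e-04) and -0.28 in IFE (SE 0.19, adjusted p = 0.661), and the interaction -1.95 (SE 0.27, 95% interval -2.54 to -1.36, adjusted p = 0.0228).

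Mme encodes neprilysin, a zinc peptidase of the cell surface also known as CD10. It read 6.11, 6.25, 6.08 and 6.67 on bulge cKO replicates 1 to 4 and 7.83, 7.63 and 7.92 on bulge WT replicates 1 to 3. On the IFE arrays it read 5.49, 5.56, 5.61 and 5.32 in cKO and 5.86, 5.70 and 5.64 in WT. The groups did not overlap in either compartment, but the gap was wide in bulge and narrow in IFE. The effects were -1.52 (SE 0.13, adjusted p = 1.24e-04) and -0.24 (SE 0.13, adjusted p = 0.557), with an interaction of -1.28 (SE 0.19, 95% interval -1.68 to -0.87, adjusted p = 0.0284). Of 39 serpins measured, Serpina3n was the 1 with an interaction past the threshold (median of the list 0.0658, and 0.0383 without bulge cKO replicates 2 and 3). Of 21 metallopeptidases Mme was (median -0.0689, and -0.0482 without them). An unadjusted p under 0.05 was found for 5 of the 39 serpins and 8 of the 21 metallopeptidases, against 14.1% of all genes. Within bulge cells 5 of the 21 metallopeptidases passed as lower in cKO, as did 1.85% of all genes. Over all genes the median interaction was 0.0239.

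Hoxa5 and Gm15050, both in the HoxA cluster on chromosome 6, fell in bulge cells. Hox genes encode transcription factors that hold positional identity along the body. Hoxa5 read 7.11, 6.73, 6.76 and 6.96 on bulge cKO replicates 1 to 4, 7.66, 7.84 and 7.77 on bulge WT replicates 1 to 3, 6.66, 6.44, 6.58 and 6.50 on IFE cKO and 6.57, 6.66 and 6.58 on IFE WT arrays. Bulge WT arrays were the highest, bulge cKO arrays came next without overlap, and the IFE groups overlapped each other. The effect was -0.87 in bulge cells (adjusted p = 4.33e-04) and -0.06 in IFE (adjusted p = 0.883), with an interaction of -0.81 (SE 0.12, 95% interval -1.08 to -0.54, adjusted p = 0.0375). Gm15050, a gene model that starts between Hoxa3 and Hoxa4, had effects of -0.57 (adjusted p = 0.00228) and 0.10 (adjusted p = 0.712) and an interaction of -0.67 (SE 0.11, adjusted p = 0.0426). It read 6.85 to 6.97 on bulge cKO, 7.34 to 7.66 on bulge WT, 6.61 to 6.77 on IFE cKO and 6.49 to 6.69 on IFE WT arrays. Gm15050 and 4930555F03Rik are named here although the naming rule passes over gene models, a choice made after their values were seen.

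Promoters differ in how many CG dinucleotides, the sites of DNA methylation, they hold, and the stretch before the start site was read for each gene. Of the 18 genes 16 had a promoter window in RefSeq (build GRCm38.p6), all but Tslp and Dusp26. Within 250 bases before the start, the CG dinucleotide, which reads the same on both strands, occurred 1 to 38 times, with a median of 14, as over 13605 genes tested with a window. At least 10 were found in 9 of the 16 and in 62.4% of all genes. The windows of Serpina3n (chr12:104406458-104406707, plus strand, 1 CG) and Slc38a4 (chr15:97031214-97031463, minus strand, 5 CG in the richest of its 3 windows) are shown as CG-poor examples and those of Hoxa5 (chr6:52204588-52204837, minus strand, 28 CG) and Phka1 (chrX:102644247-102644496, minus strand, 19 CG) as CG-rich ones, each 5′ to 3′ on the gene's strand with CG in capitals.
Serpina3n: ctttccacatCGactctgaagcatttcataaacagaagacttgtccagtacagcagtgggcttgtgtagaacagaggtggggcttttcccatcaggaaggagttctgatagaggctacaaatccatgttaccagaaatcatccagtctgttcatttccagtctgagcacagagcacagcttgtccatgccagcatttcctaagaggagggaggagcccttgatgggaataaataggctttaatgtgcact
Slc38a4: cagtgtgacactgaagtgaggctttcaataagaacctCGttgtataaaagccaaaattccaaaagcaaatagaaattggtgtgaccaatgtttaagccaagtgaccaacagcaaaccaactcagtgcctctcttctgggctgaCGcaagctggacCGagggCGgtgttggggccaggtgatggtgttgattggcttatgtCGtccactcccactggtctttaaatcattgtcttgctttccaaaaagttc
Hoxa5: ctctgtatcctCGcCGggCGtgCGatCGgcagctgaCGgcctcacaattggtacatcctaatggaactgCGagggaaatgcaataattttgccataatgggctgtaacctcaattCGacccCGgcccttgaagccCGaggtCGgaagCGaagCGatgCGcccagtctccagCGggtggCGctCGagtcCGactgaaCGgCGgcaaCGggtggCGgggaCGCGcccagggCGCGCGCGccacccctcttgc
Phka1: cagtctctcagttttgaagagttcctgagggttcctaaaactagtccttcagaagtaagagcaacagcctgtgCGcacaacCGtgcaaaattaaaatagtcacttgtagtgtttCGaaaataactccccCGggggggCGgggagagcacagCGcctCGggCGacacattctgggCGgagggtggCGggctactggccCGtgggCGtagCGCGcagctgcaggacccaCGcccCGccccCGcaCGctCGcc

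The 16 genes with a window thus had CG-poor as well as CG-rich ones. Methylation of histones or DNA was not analysed here.

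Tslp and Tmem176b were the genes whose larger effect lay in IFE cells and whose bulge effect did not pass. Tslp encodes thymic stromal lymphopoietin, a cytokine that keratinocytes release and that acts on dendritic cells. It read 4.98, 4.71 and 5.08 on IFE WT replicates 1 to 3 and 4.26, 4.22, 4.22 and 4.37 on IFE cKO replicates 1 to 4. Bulge cKO arrays read 4.26, 4.29, 4.28 and 4.28 and bulge WT arrays 4.12, 4.20 and 4.13. IFE WT arrays were above all others, all of the other arrays lay within a narrow band, and every array was below the array medians. The bulge arrays lay near control probe sets with no target (4.16 to 4.36 at 16 G or C bases), where a fall could hardly show. The effect was -0.66 in IFE (adjusted p = 8.51e-04) and 0.13 in bulge cells (adjusted p = 0.278), and the interaction 0.79 (SE 0.10, 95% interval 0.56 to 1.01, adjusted p = 0.0223). In WT skin Tslp was lower in bulge than in IFE by 0.77, and in cKO skin the difference was 0.01.

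Tmem176b encodes a membrane protein of endosomal compartments that is best known from dendritic cells. Its IFE signal rose from 9.28, 9.14 and 9.18 on WT replicates 1 to 3 to 9.91, 9.97, 10.01 and 10.01 on cKO replicates 1 to 4. In bulge it was 10.48, 10.30 and 10.29 on WT and 10.25, 10.08, 10.16 and 10.41 on cKO arrays. Its bulge groups overlapped, the 1 case of overlap in bulge among the 18 genes. The effects were 0.77 in IFE (adjusted p = 2.65e-04) and -0.14 in bulge cells (adjusted p = 0.268), with an interaction of -0.91 (SE 0.11, 95% interval -1.14 to -0.68, adjusted p = 0.00959). Its paralogue and neighbour Tmem176a had effects of 0.83 in IFE (adjusted p = 0.0482) and 0.18 in bulge cells (adjusted p = 0.495), and an interaction of -0.65 (adjusted p = 0.265). Over the 15 Langerhans and antigen presenting cell markers the mean signal on IFE arrays was 5.97, 6.28, 6.33 and 6.03 in cKO and 6.06, 5.69 and 6.0 in WT, ranges that overlapped, and their part in the Tmem176b result was not tested.

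Phka1 had the smallest p-value of all genes. It encodes a regulatory subunit of phosphorylase kinase, the enzyme that switches on glycogen breakdown. It read 5.90, 5.81, 5.94 and 5.93 on bulge cKO replicates 1 to 4 and 6.51, 6.43 and 6.44 on bulge WT replicates 1 to 3, without overlap. In IFE the order was turned, with 5.75, 5.77, 5.71 and 5.76 in cKO and 5.45, 5.56 and 5.56 in WT, again without overlap. The effects were -0.56 (adjusted p = 5.99e-05) and 0.22 (adjusted p = 0.054) and the interaction -0.79 (SE 0.06, 95% interval -0.92 to -0.65, adjusted p = 5.07e-04). Its other probe sets gave interactions of -0.32 and -0.49, with IFE effects of 0.01 and 0.08. On the first of these the IFE groups overlapped, at 5.37 to 5.43 in cKO and 5.29 to 5.46 in WT, so the turned order was not seen there. On the second they did not overlap and cKO was the higher. Phka2, the related subunit, had an interaction of -0.36 and Phkb one of -0.41, neither past the threshold (adjusted p = 0.212 and 0.347), and Phkg1 one of 0.09 (0.608). Stbd1, which binds glycogen, fell from 5.03, 5.17 and 5.14 on bulge WT to 4.68, 4.63, 4.65 and 4.75 on bulge cKO arrays. Its IFE groups overlapped between 4.43 and 4.64. That is near control probe sets with no target (4.34 to 4.6 at 17 G or C bases), where a fall could hardly show. Its effects were -0.44 and 0.03 and its interaction -0.47 (adjusted p = 0.044).

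Tenm3 and Sorcs3, a cell adhesion protein and a sorting receptor best known from neurons, fell in bulge cells, and their IFE effects did not pass. Tenm3 read 4.25, 4.25, 4.29 and 4.39 on bulge cKO and 4.93, 4.98 and 4.90 on bulge WT arrays, against 4.21 to 4.34 on all IFE arrays, so bulge WT stood above the rest. On IFE arrays Tenm3 was near control probe sets with no target (4.16 to 4.36 at 16 G or C bases), where a fall could hardly show. Its effects were -0.64 and -0.04 and its interaction -0.60 (SE 0.07, adjusted p = 0.00684), with -0.33 on a second probe set. Sorcs3 read 6.40, 6.30, 6.14 and 6.22 on bulge cKO, 6.89, 6.92 and 7.21 on bulge WT and 5.85 to 5.98 on IFE arrays. Its effects were -0.74 and 0.05 and its interaction -0.79 (SE 0.11, adjusted p = 0.0228), with -0.14 on a second probe set that read 3.92 to 4.22.

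Vangl2, a core protein of planar cell polarity, by which hair follicles are aligned in the skin, had estimates of opposite sign. Its signal was 8.60, 8.44, 8.65 and 8.68 on bulge cKO and 9.0, 8.92 and 8.76 on bulge WT arrays, and 8.22, 8.35, 8.26 and 8.31 on IFE cKO and 7.94, 8.02 and 7.92 on IFE WT arrays. The groups did not overlap in either compartment, with cKO the lower in bulge and the higher in IFE. The effect of -0.30 in bulge passed (adjusted p = 0.0364) and that of 0.32 in IFE did not (adjusted p = 0.0676), and the interaction was -0.63 (SE 0.10, adjusted p = 0.0391). The other 2 probe sets of Vangl2 gave -0.71 and -0.49. Among further genes of this pathway, the interaction was -0.39 for Vangl1, -1.11 for Prickle2, -1.0 for Fzd3, -0.20 for Fzd6 and 0.10 for Celsr1, with adjusted p from 0.212 to 0.835.

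Lpcat4, an acyltransferase of membrane phospholipids, Arhgef12, which activates the GTPase RhoA, and Ddit4l, an inhibitor of mTORC1 signalling, had the same form. Their bulge effects passed, at -0.32, -0.24 and -0.29, and their IFE effects of 0.22, 0.11 and 0.14 did not. The interactions were -0.53 for Lpcat4, -0.35 for Arhgef12 and -0.42 for Ddit4l (adjusted p = 0.0426, 0.044 and 0.0284). On the probe set tested for each of these genes the cKO and WT arrays did not overlap in bulge or in IFE, where cKO was the higher. A second probe set of Arhgef12 overlapped in IFE (effect 0.01), with an interaction of -0.30 (limma adjusted p = 0.301 over all probe sets). A second one of Ddit4l overlapped in both compartments, with an interaction of -0.16 (limma adjusted p = 0.330 over all probe sets). Lpcat4, for example, read 7.14 to 7.32 against 7.53 to 7.62 in bulge and 6.93 to 7.04 against 6.68 to 6.91 in IFE.

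A further 3 genes rose in bulge cells. Dusp26, a dual specificity phosphatase, read 5.74, 5.76, 5.63 and 5.66 on bulge cKO against 5.23, 5.11 and 5.16 on bulge WT arrays, and 5.08 to 5.25 on all IFE arrays. The 4 bulge cKO arrays were above the rest, with an effect of 0.53 in bulge cells (adjusted p = 2.34e-04), one of 0.06 in IFE and an interaction of 0.47 (SE 0.07, adjusted p = 0.0327). 4930555F03Rik showed the same order, at 5.70 to 5.82 on bulge cKO arrays and 5.25 to 5.41 on the others, with an interaction of 0.47 (adjusted p = 0.0228). Slc41a3, a magnesium transporter, read 6.44 to 6.55 on bulge cKO against 6.19 to 6.32 on bulge WT, and 6.14 to 6.25 on IFE cKO against 6.31 to 6.45 on IFE WT arrays. Its effects were 0.26 (adjusted p = 0.0188) and -0.19 (adjusted p = 0.1525) and its interaction 0.44 (adjusted p = 0.0411), with 0.08 and 0.33 on its other probe sets.

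Across the 18 genes the cKO and WT arrays did not overlap in 17 in bulge and in 11 in IFE, against 18.5% and 11% of all genes. The genes were chosen on these same arrays, so an excess over all genes is no further support. Bulge minus IFE, taken within each genotype, shares its arrays with the interaction and is given as a description. In WT it passed the threshold in 16 of the 18 (35.1% of all genes) and in cKO in 13 (32.1% of all genes). Its size was smaller in cKO than in WT in 15 of the 18, as in 63.3% of all genes, with a median size of 0.842 in WT and 0.286 in cKO. All 14 genes with a negative interaction were higher in bulge WT than in IFE WT, and Dusp26, 4930555F03Rik and Slc41a3 were those whose difference was larger in cKO. Of the 18 genes 8 had further probe sets, 11 in all. Each of these had an interaction of the same sign, 8 with an unadjusted p under 0.05, and 10 were smaller in size than that of the probe set tested.

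Genes of the Hox clusters fell in bulge cells at several loci, with few differences between compartments past the threshold. Of 34 Hox genes measured 11 were lower in bulge cKO (1.85% of all genes were) and 1 in IFE cKO, Hoxc4 (0.175% of all genes), and Hoxa5 alone passed for the interaction, whose median was -0.0954, or -0.0488 without bulge cKO replicates 2 and 3. In HoxA the interaction along the cluster was -0.43 at Hoxa2, -0.88 at Hoxa3 (adjusted p = 0.0572), -0.67 at Gm15050, -0.13 at Hoxa4, -0.81 at Hoxa5 and -0.45 at Hoxa7. From Hoxa9 to Hoxa13 it lay between -0.06 and 0.07. Hoxa3 read 8.87, 8.55, 8.62 and 8.71 on bulge cKO, 9.64, 9.59 and 9.48 on bulge WT and 7.81 to 8.21 on IFE arrays, so that bulge WT was above bulge cKO without overlap. Hoxa10 read 3.59 to 3.74 on all arrays, a level inside the range of the control probe sets with no target.

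In HoxB 9 of 11 genes had a negative interaction, with a median of -0.56, and 6 were lower in bulge cKO, among them Hoxb5 (effects -1.16 and -0.13) and Hoxb7 (-0.65 and 0.03). The interaction passed in 0 of the 11 by limma and had an unadjusted p under 0.05 in 7, against 14.1% of all genes. Hoxb6 differed between bulge cKO arrays, reading 6.70 and 6.13 on replicates 1 and 4 and 4.90 and 5.10 on replicates 2 and 3, against 7.08 to 7.39 on bulge WT. Replicates 2 and 3 were also below 1 and 4 in Hoxb8 (8.98, 7.76, 7.97 and 8.51 in order), Hoxb9, Hoxb5os, Hoxb5, Hoxb3, Hoxb4 and Hoxb2. Of the HoxB genes with a negative interaction only Hoxb7 did not show this order. It read 8.15, 8.41, 8.13 and 8.16 on bulge cKO replicates 1 to 4 and 8.76 to 9.03 on bulge WT. In HoxA the order was seen in Hoxa2, Hoxa3, Hoxa5 and Hoxa7, and not in Hoxa4 or Gm15050. The HoxB median was not recomputed without these replicates. In HoxD the negative estimates of size were those of Hoxd9 (-1.46, adjusted p = 0.0946) and Hoxd8 (-0.93, adjusted p = 0.194), and the median over 11 genes was 0.055. HoxC had 6 genes and a median of 0.027. Neighbouring Hox genes are not independent of each other.

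**Figure D4:**
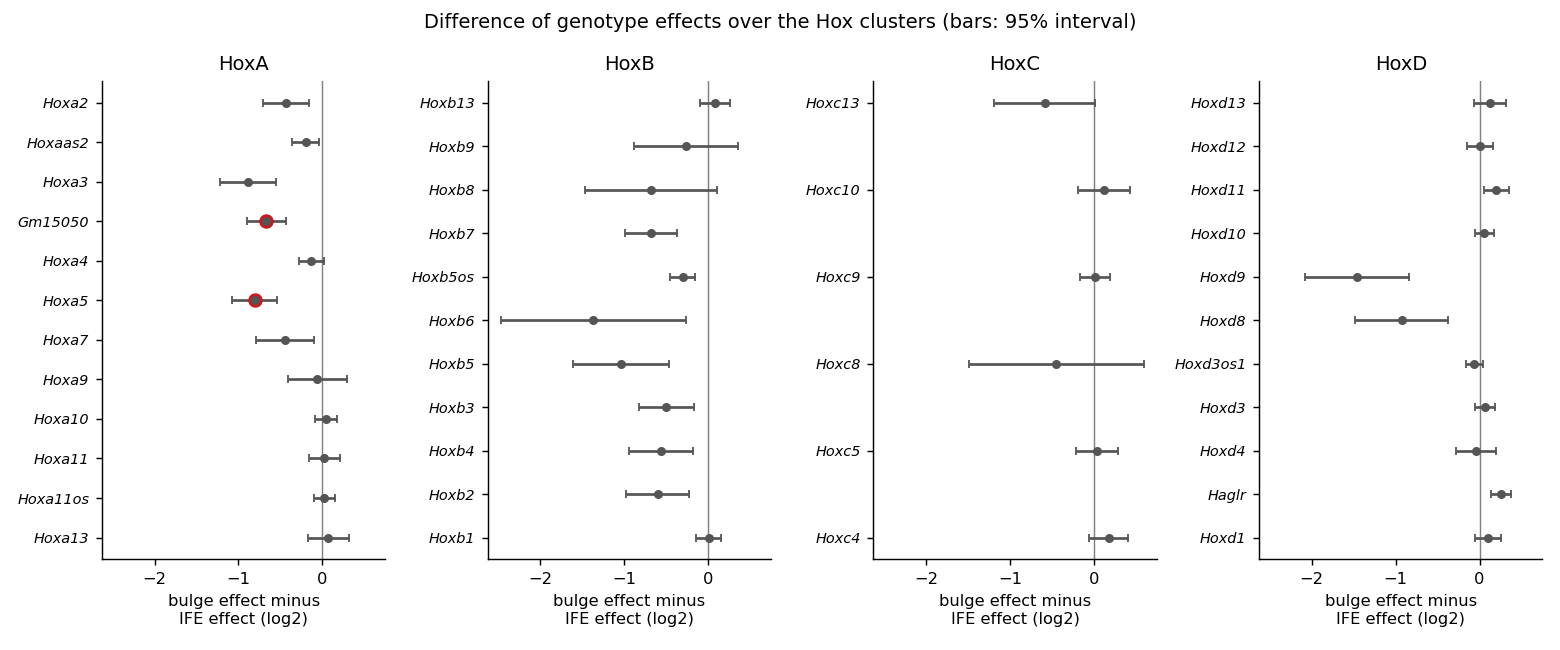
Bulge effect minus IFE effect (log2 signal) with its 95% interval for the genes of the 4 Hox clusters in chromosomal order, red circles marking the 2 past the threshold, Gm15050 and Hoxa5. Estimates from Hoxa2 to Hoxa7 and from Hoxb7 to Hoxb2 lie below 0, and those from Hoxa9 to Hoxa13 lie near 0.

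Marker lists of the compartments had median interactions of opposite sign, with 0 members past limma's threshold. Over 20 bulge stem cell genes the median interaction was -0.74, with 0 above 0, and over 28 epidermal differentiation genes it was 0.533, with 26 above 0. An unadjusted p under 0.05 was found for 13 of the former and 5 of the latter, the latter near the 14.1% of all genes. Within bulge cells 4 differentiation genes passed as higher in cKO, as did 1.98% of all genes. Averaged over the bulge list, the signal of the 4 bulge cKO arrays was 9.82, 8.98, 9.18 and 10.02, in order of replicate, where bulge WT arrays had 10.01 to 10.20, and 6.93, 7.43, 7.51 and 6.94 on IFE cKO against 6.89 to 6.98 on IFE WT. Replicates 2 and 3 were thus low in bulge cKO and high in IFE cKO. The differentiation list averaged 7.11, 8.69, 8.43 and 7.91 on bulge cKO replicates 1 to 4, 6.63 to 7.11 on bulge WT, 8.37 to 8.86 on IFE cKO and 7.95 to 8.53 on IFE WT. Without bulge cKO replicates 2 and 3 the medians were -0.347 for the bulge list and 0.0912 for differentiation. The bulge genes with the smallest p were Tcf7l2 (-0.58, adjusted p = 0.212), a Wnt effector, Krt15 (-0.48, 0.212) and the Wnt inhibitor Wif1 (-2.06, 0.265). Those of differentiation were the lipid transporter Abca12 (1.63, 0.192), the envelope gene Sprr1a (1.52, 0.235) and Ovol1 (1.09, 0.286).

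**Figure D5:**
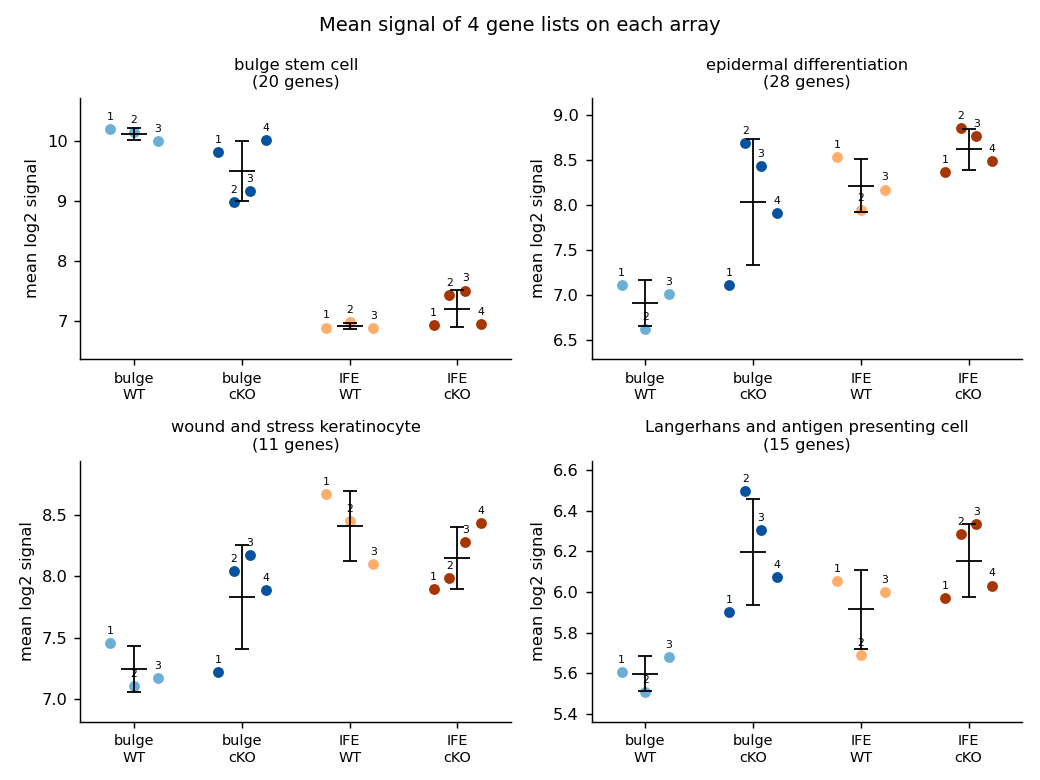
Mean log2 signal of 4 gene lists on each of the 14 arrays, by group, with replicate numbers beside the points and the mean and SD of each group as bars. Bulge cKO replicates 2 and 3 lie below replicates 1 and 4 for the 20 bulge stem cell genes and above them for the 28 epidermal differentiation genes and the 11 wound and stress genes.

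Other epidermal lists gave these medians, each with 0 members past limma's threshold for the interaction unless said otherwise. Wound and stress keratinocyte genes had 0.964 over 11 genes (0.572 without bulge cKO replicates 2 and 3). An unadjusted p under 0.05 was found for 5 of the 11, against 14.1% of all genes. The list held the EGF receptor ligands Epgn (1.84, adjusted p = 0.212) and Hbegf (0.99, 0.221) and the protease Mmp9 (1.37, 0.218). The upper follicle list had 0.299 over 9 genes (0.1 without those 2 replicates) and the basal keratinocyte list -0.0461 over 12 (0.00461 without them). The cell cycle list had 0.295 over 26 genes (0.244), sebaceous genes 0.062 over 11 (-0.32) and anagen hair genes 0.0398 over 15 (0.00607). The basal and sebaceous medians thus changed sign without those replicates. In each of these 5 lists at most 1 gene had an unadjusted p under 0.05. Of 21 cytokines and alarmins (median 0.074, and 0.0244 without them) Tslp passed, and Il33, an alarmin of the epidermis, had 1.72 (adjusted p = 0.263) and Ccl20 0.33 (0.194). Over all genes the median was 0.0239.

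Markers of other cells that the samples could hold had 0 members past limma's threshold for the interaction. The 15 Langerhans and antigen presenting cell markers had a median interaction of 0.235, or 0.0675 without bulge cKO replicates 2 and 3. An unadjusted p under 0.05 was found for 3 of the 15, against 14.1% of all genes, and H2-Ab1 had 1.46 (adjusted p = 0.299). Within bulge cells 5 of the 15 markers passed as higher in cKO, as did 1.98% of all genes. Their mean signal was 5.90, 6.50, 6.30 and 6.08 on bulge cKO replicates 1 to 4 and 5.51 to 5.68 on bulge WT arrays. Medians were 0.0524 for 10 T cell, 0.0234 for 9 fibroblast, 0.0339 for 9 melanocyte, 0.0443 for 8 endothelial and 0.0569 for 8 skeletal muscle markers, with at most 1 unadjusted p under 0.05 in each list. Without bulge cKO replicates 2 and 3 the first 3 of these medians changed sign, to -0.0689, -0.0945 and -0.0687, and the others were 0.0222 and 0.041. The part of these cells in the results for single genes was not tested.

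Lists tied to the known roles of G9a held 1 gene past the threshold. Among 24 imprinted genes (median -0.0305) it was Slc38a4, which is also the 1 that passed of 9 SLC38 transporters (median -0.185), and Snrpn, an imprinted gene of splicing, came near (-0.71, adjusted p = 0.0572). An unadjusted p under 0.05 was found for 9 of the 24. Over all genes the share was 14.1%, for this list and those below. Snrpn read 9.41, 9.37, 9.32 and 9.42 on bulge cKO, 8.79, 8.61 and 8.78 on bulge WT, 8.92, 9.20, 9.04 and 8.87 on IFE cKO and 7.52, 7.61 and 7.79 on IFE WT arrays. In Snrpn cKO was above WT in both compartments and IFE WT was the lowest group. Sgce, the imprinted gene with the next smallest p (interaction -0.96, adjusted p = 0.221), went the other way, with an effect of -0.95 in bulge (adjusted p = 0.0327) and a difference near 0 in IFE (adjusted p = 1.0). Of 17 germline genes (median 0.0224) and 20 genes of H3K9 methylation and silencing (median -0.0811) 0 passed by limma, with an unadjusted p under 0.05 in 2 and 1. Immediate early genes (0.0639 over 16), p53 targets (0.0374 over 17) and interferon response genes (-0.0193 over 19) had 0 as well (unadjusted p under 0.05 in 0, 6 and 0), with Gadd45a at 1.22 (adjusted p = 0.177) and Pmaip1 at 1.66 (0.194) among the p53 targets. Without bulge cKO replicates 2 and 3 the medians were -0.0635 for the imprinted, 0.013 for the germline and -0.0417 for the H3K9 list, and 0.154, -0.0159 and -0.0383 for the immediate early, p53 and interferon lists, so that of the p53 targets changed sign.

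The 43 genes past the threshold in both compartments were 6.55% of the bulge calls and 50.6% of the IFE calls, 34 higher and 9 lower, each in the same direction in both. The IFE effect was the larger in 28 of the 34 and in 8 of the 9. With fewer calls in IFE a gene needed a larger effect there to pass. The part of this in the 2 counts was not tested, so they are given as values. Phf11a, with the same SE in both, passed in bulge at 0.40 (adjusted p = 0.038) and in IFE, at 0.47, only just (adjusted p = 0.0494). The 95% interval of the interaction included 0 in 31 and excluded it in 12, lying below 0 in 10 of these. It lay within 0.5 of 0 in 19, so for the rest a larger difference is within the interval. Gpa33, a cell surface glycoprotein of the intestine, had effects of 3.25 in bulge and 2.87 in IFE (interval of the difference 0.03 to 0.73), and Casp1, an inflammatory caspase, 0.80 and 0.82 (-0.33 to 0.29). Akr1c13, an aldo-keto reductase, had 2.23 and 2.39 (-0.50 to 0.18), whereas its relative Akr1c12 had 2.61 and 3.21 (-0.95 to -0.26). Minar2 had 3.38 and 4.35 (-1.72 to -0.21) and Adgrv1, an adhesion receptor, 1.26 and 2.41 (-1.82 to -0.49). Of the lower genes, Nop53, a factor of ribosome assembly, had -0.83 and -0.96 (-0.17 to 0.43) and Dio2, which activates thyroid hormone, -0.32 and -0.75 (0.22 to 0.63).

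Most genes with a large estimate of the interaction had a wide error. Its size was at least 1 in 168 genes, of which Mme, Serpina3n and Slc38a4 passed. The other 165, 100 positive and 65 negative, had a median SE of 0.493, against 0.113 over all genes and 0.0911 over the 18. Their median SD was 0.669 on bulge cKO arrays and 0.246 to 0.352 in the other groups, where all genes had 0.108 and 0.0819 to 0.0954. In 152 of the 165 (92.1%) bulge cKO replicates 2 and 3 both lay to the same side of replicates 1 and 4, as in 58.1% of all genes and in 6 of the 18.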

How the data were processed

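Each of the 14 samples was hybridised to 1 array. The authors deposited log2 signals of 45141 probe sets made by RMA, which corrects background, equalises the arrays' distributions and summarises probes, per the submitters' processing notes (its version and any further step are unknown here). RMA shrinks differences of dim probe sets, and no detection call was used. Probe sets with 1 gene symbol (28898) were kept, and the one with the highest mean over the arrays stood for each of 17097 genes. limma 3.58.1 in R 4.3.3 fitted means of 4 groups (10 residual degrees of freedom, tests two-sided), with Benjamini-Hochberg adjustment over all genes and a threshold of 0.05, and was tested on simulated data. Columns were matched to samples by title. Figures were drawn with Python 3.11.15 and matplotlib 3.10.9. Precision is limited by the number of arrays.

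The genes named were Ehmt2, Ehmt1, the 6 genes in the plot of signals by array, up to 14 genes in each direction with an interaction past the threshold, genes past it in both compartments in opposite directions (0), and, for the lists whose genes are named, members that passed or else up to 3 with the smallest p. Gene models, genes past the threshold in both compartments, relatives of named genes, Hox neighbours, Rimklb and genes that came near the threshold fall outside this rule and were named after their values were seen. The comparison, its genes and the 25 gene lists were chosen with earlier results of these data known. Alternatives varied the normalization, the filter on dim probe sets, the choice of probe set, the variance model, array weights, the replicate block, the threshold and the arrays included. Array weights gene by gene were chosen after seeing the data.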

Additional observations from a re-analysis of the deposited data

Results flagged for a closer look

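Each of the 18 genes is listed because its knockout effect differed between the compartments by the test of the difference itself (limma, adjusted p under 0.05). The bulge effect minus the IFE effect was -2.06 for Slc38a4, -1.95 for Serpina3n, -1.28 for Mme, -0.91 for Tmem176b, -0.81 for Hoxa5, -0.79 for Sorcs3 and -0.79 for Phka1. It was -0.67 for Gm15050, -0.63 for Vangl2, -0.60 for Tenm3, -0.53 for Lpcat4, -0.47 for Stbd1, -0.42 for Ddit4l and -0.35 for Arhgef12. It was positive for Tslp (0.79), Dusp26 (0.47), 4930555F03Rik (0.47) and Slc41a3 (0.44). Tslp, Dusp26, 4930555F03Rik, Stbd1 and Tenm3 had group means below the array medians in all groups. Single arrays far from the other 3 of their group were looked for in 40 pairs of a gene and a group of 4 arrays, and 0 were found. Chance alone gives about 1 in 20.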

How the results depend on the processing

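The interaction was called in 18 genes, the bulge effect in 656 and the IFE effect in 85. Where dim probe sets were left out, 6 genes had a called interaction, and 5 of the 18 (Tslp, Dusp26, 4930555F03Rik, Stbd1 and Tenm3) were no longer tested. At an adjusted p under 0.1 the counts were 49, 2015 and 176. With array weights, whose fit did not converge, they were 4974, 8242 and 1458, with 10318 genes for bulge against IFE in cKO, and with weights found gene by gene 2520, 5766 and 904. Weighting rated bulge cKO replicate 3 highest, and the cause of these counts was not tested. The replicate numbers were not taken to pair the samples: deviations of same-numbered arrays correlated between -0.57 and 0.25, over 0.1 in 4 of 7 pairs, and 2 of 7 bulge arrays matched their own number best. These values cannot exclude a pairing, and cKO replicates 2 and 3 stood apart on the first principal component in both compartments. With the number as a replicate block the counts were 2, 412 and 33. With genotype and number as a fixed replicate block 0 interactions passed (2446 at an unadjusted p under 0.05), and as a random one 20. Without bulge cKO replicates 2 and 3 there were 3 interactions and 116 bulge calls, and without these replicates in both compartments 3, 80 and 41.

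With single arrays left out, interactions ranged from 3 to 240, bulge calls from 116 to 2553 and IFE calls from 38 to 107. Bulge calls were 987, 212, 185 and 2553 without bulge cKO replicates 1, 2, 3 and 4, 116 and 134 without bulge WT replicates 1 and 2, 341 without IFE cKO replicate 3 and 402 without IFE WT replicate 1. IFE calls were 43 without IFE cKO replicate 3 and 38 without IFE WT replicate 1. No estimate of the 18 genes changed sign in the alternatives run. Adjusted p of the interaction ranged from 1.04e-04 to 0.0587 for Phka1 and reached 0.189 to 0.597 for the others. Centring arrays on their medians gave 20 interactions, 18 of them shared, and moved the share of higher calls from 51.7% to 41.5% in bulge, from 52.6% to 42.5% for bulge against IFE in WT and from 54.7% to 39.6% in cKO. Of 700 medians of gene lists recomputed, 43 moved by more than the replicate spread.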

Other observations

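A further 31 genes had an adjusted p of the interaction between 0.05 and 0.1 by limma, 15 positive and 16 negative, and are given as values. Has3, an enzyme that makes hyaluronan, had effects of 0.04 in bulge and -1.28 in IFE (interaction 1.32, adjusted p = 0.0676). It read 6.69, 6.31 and 6.90 on IFE WT, 5.20, 5.07, 5.43 and 5.72 on IFE cKO and 4.52 to 4.92 on bulge arrays, so IFE WT was above the rest. Kcnma1, a potassium channel, had -1.59 and 0.01 (interaction -1.60, adjusted p = 0.065), at 9.21, 8.61 and 9.0 on bulge WT, 7.47, 7.13, 7.01 and 7.78 on bulge cKO and 5.41 to 5.97 on IFE arrays. Gfra2, a receptor of neurturin, had -1.29 and 0.25 (interaction -1.53, adjusted p = 0.0766).

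Psmb8, a subunit of the immunoproteasome, and Nlrc5, an activator of MHC class I genes, had positive interactions. Psmb8 read 8.91, 8.94, 8.86 and 8.88 on bulge cKO, 8.11, 7.64 and 8.25 on bulge WT and 9.29 to 9.54 on IFE arrays of both genotypes. Its effects were 0.90 in bulge and -0.04 in IFE (interaction 0.94, adjusted p = 0.0572). Those of Nlrc5 were 1.41 and 0.20 (interaction 1.20, adjusted p = 0.0919). Tcim had the largest positive estimate of these genes (2.22, adjusted p = 0.0919), at 7.76, 9.23, 9.10 and 8.12 on the 4 bulge cKO arrays in order of replicate, 6.19 to 6.46 on bulge WT and 9.80 to 10.44 on IFE arrays.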
